A study of Mus musculus with 6 samples.

Results

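The genes described here are 10 genes of the intercalated disc and its gap junctions, chosen by name from the 21776 genes of the table, namely *Gja1*, *Tjp1*, *Dsp*, *Jup*, *Pkp2*, *Dsg2*, *Dsc2*, *Cdh2*, *Ctnna1* and *Ctnna3*. They were compared between 3 *Trdn-as* KO and 3 WT adult mouse hearts, measured by strand-specific total RNA sequencing with 1 library per sample. The values are the authors' normalised read counts, that is, reads per gene divided by a size factor of the library and rounded to whole numbers. *Trdn-as*, a long non-coding RNA, runs antisense to *Trdn*, the gene of triadin, which sits beside the ryanodine receptor at the calcium stores of muscle cells. The KO mice were homozygous for a polyadenylation signal placed by Cas9 in the first exon of *Trdn-as* in embryonic stem cells, and were backcrossed to C57BL/6. The allele is carried by every cell of the animal, whereas the submitters describe the loss of *Trdn-as* as one of cardiomyocytes. The WT hearts carry neither this allele nor another listed one, and no treatment is listed for either group. The exact age and the sex of the sequenced animals are not given in the sources used here. Each sample is labelled only as heart, a mixture of cell types, in which fewer cardiomyocytes and less RNA per cardiomyocyte cannot be told apart.

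The intercalated disc is the specialised border at which neighbouring cardiomyocytes are joined end to end. Desmosomes anchor the intermediate filaments of both cells, adherens junctions anchor their actin filaments, and gap junctions let ions pass so that the action potential spreads from cell to cell. In the heart these junctions are intermixed, and mutations of the desmosomal genes are a known cause of arrhythmogenic cardiomyopathy. The comparison asks whether the RNA of these genes differed in hearts that lack *Trdn-as*.

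None of the 10 genes differed between KO and WT hearts beyond the spread between hearts. In every one of them the KO and WT values overlapped, and the KO mean lay between 0.928 times the WT mean, for *Dsp*, and 1.05 times, for *Dsg2*. All 10 passed the filter on low values, a mean of at least 10 over the 6 hearts. The log2 fold changes, on the scale of log2(value + 1), were positive for 3 genes and negative for 7, with a median of -0.05, against a median of 0.00 over the 13753 genes tested. At an adjusted p under 0.05, 0 of the 10 genes passed (limma, two-sided, Benjamini-Hochberg over all genes), where 0.0291% of all genes tested passed. The count at an unadjusted p under 0.05 was 0 of 10 as well (limma), against 5.74% of all genes (2.94% higher and 2.8% lower in KO), and limma-voom likewise called 0 of the 10 after adjustment. The groups failed to overlap in 0 of 10, against 9.07% of all genes, of which 4.64% were higher and 4.44% lower in KO.

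The genotype and the depth were checked first. *Trdn-as*, listed as AC157017.2, had normalised read counts of 690, 773 and 688 in the WT hearts and of 1, 0 and 1 in the KO hearts. *Trdn* had 2489, 2381 and 2551 reads in KO, compared with 1541, 1541 and 1516 in WT hearts, 1.61 times as high in KO by the means, with an adjusted p of 2.35e-07, or of 0.145 without the mean-variance trend (limma). The libraries held an estimated 2.59 to 3.62 M counted reads, the fewest in WT replicate 1, and each disc gene rested on at least 434 reads in every heart. The cardiomyocyte markers *Myh6*, *Tnnt2*, *Actc1* and *Ryr2* were high in all hearts, whereas the 5 epicardial, mesothelial and epithelial markers in the table summed to 31 to 62 per heart, most of it from *Wt1* with 23 to 45.

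The RNA levels of the 10 genes spanned a 6.35-fold range when compared per exonic kilobase. *Dsp*, the gene of desmoplakin, had the highest level with a mean of 533 normalised reads per kilobase over the 6 hearts, 1.99 times that of the next gene. *Ctnna1*, which encodes αE-catenin, followed with 268. *Cdh2*, the gene of N-cadherin, had 170. *Tjp1*, *Gja1* and *Dsg2* had means of 153, 148 and 139, and in this stretch the ranges over the hearts overlapped from each gene to the next. *Pkp2* had 120, *Dsc2* 105, *Jup* 96.1 and *Ctnna3* 84.0, and here the 6 hearts of each gene lay apart from those of its neighbours in the order. The same gene came first and the same gene last in both genotypes, at 514 ± 15.7 and 81.4 ± 8.46 per kilobase in KO hearts and at 553 ± 57.8 and 86.7 ± 2.63 in WT hearts (SD, n = 3). These levels rest on the total exon length of all annotated transcripts, which for *Gja1* is 10.3 kb and was not reduced to the transcript used in heart. Duplicate reads had been removed, which lowers the counts of highly expressed genes most. The level of *Dsp* and the 6.35-fold range may thus be too low, and the ratios of other genes to *Dsp* too high. The size of this effect was not tested. For *Gja1*, *Jup*, *Ctnna1* and *Tjp1* the gene coordinates of that annotation differ from those of the table, so their levels and ratios per kilobase rest on a somewhat different gene model.

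**Figure D1:**
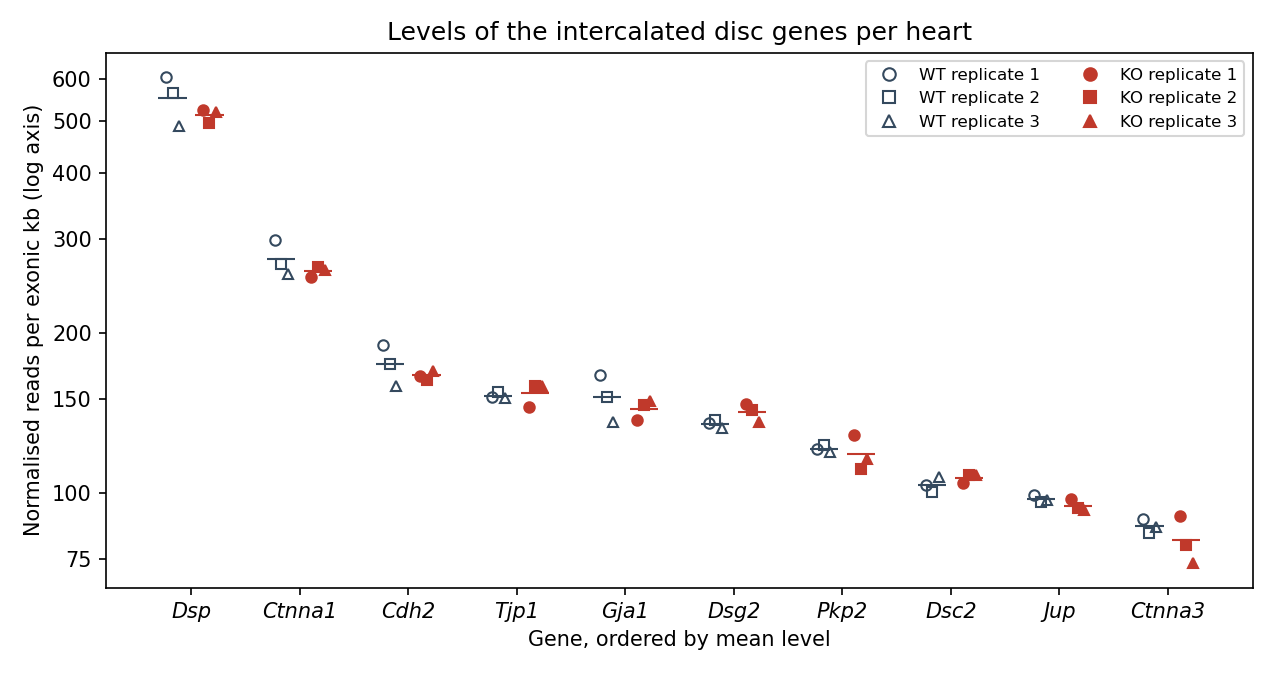
Normalised reads per exonic kilobase (log axis) of the 10 disc genes in each of 3 WT hearts (open symbols) and 3 KO hearts (filled symbols), with horizontal bars at the group means. *Dsp* lies highest with a mean of 533 and *Ctnna3* lowest with 84.0, and in every gene the KO and WT symbols overlap.

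Among the genes of the gap junction, *Gja1* encodes connexin 43, the main channel protein between ventricular cardiomyocytes. The normalised read counts of *Gja1* were 1406, 1498 and 1530 in KO hearts, compared with 1709, 1553 and 1393 in WT hearts. The highest and the lowest of the 6 values both came from WT hearts. The means were 1478 ± 64.4 in KO and 1552 ± 158 in WT hearts (SD, n = 3), so that the log2 fold change was -0.07 (SE 0.07) at an unadjusted p of 0.331 (limma). The 95% interval of the fold ran from 0.868 to 1.05, and thus included no change. *Tjp1* encodes ZO-1, a scaffold that binds the tail of connexin 43 at the edge of the gap junction. It had 1132, 1241 and 1241 reads in KO hearts, compared with 1182, 1207 and 1178 in WT hearts. The WT values lay inside the range of the KO values, and the fold interval ran from 0.933 to 1.10, with a log2 fold change of 0.02 and an unadjusted p of 0.759 (limma).

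Of the desmosomal plaque genes, *Dsp* encodes the protein that links the plaque to desmin filaments. Its values were 5074, 4788 and 5018 in KO hearts, compared with 5841, 5453 and 4740 in WT hearts. Both WT replicates 1 and 2 lay above all KO hearts, and WT replicate 3 lay below them. *Dsp* had the most negative log2 fold change of the 10 genes at -0.10 (SE 0.06), with a fold interval of 0.848 to 1.02 and the smallest unadjusted p at 0.127 (limma, adjusted p 0.892). *Jup* encodes plakoglobin, which ties both desmosomal cadherins and N-cadherin to their plaques. Its values were 626, 604 and 598 in KO hearts, compared with 639, 619 and 625 in WT hearts, the narrowest span of the 10 genes with a highest value 1.07 times the lowest. Its fold interval was 0.890 to 1.06. *Pkp2* encodes plakophilin 2, the armadillo protein of the cardiac plaque. It had 688, 595 and 622 reads in KO hearts, which enclosed the 648, 659 and 639 reads of the WT hearts. The fold interval of *Pkp2* was 0.889 to 1.07, with an unadjusted p of 0.615 (limma).

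The desmosomal cadherins bridge the gap between the cells. *Dsg2*, the gene of desmoglein 2, had 1216, 1186 and 1124 reads in KO hearts, compared with 1119, 1136 and 1094 in WT hearts. Only the lowest KO heart lay within the WT range. The means were 1175 ± 46.9 and 1116 ± 21.1 (SD, n = 3), and the log2 fold change of 0.07 (SE 0.06) was the most positive of the 10, with a fold interval of 0.971 to 1.14 and an unadjusted p of 0.200 (limma). *Dsc2*, the gene of desmocollin 2, had 551, 571 and 570 reads in KO hearts, compared with 546, 529 and 566 in WT hearts. The KO value of replicate 1 and the WT value of replicate 3 crossed, and the log2 fold change was 0.04 (SE 0.06) with a fold interval of 0.943 to 1.13.

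Of the adherens junction genes, *Cdh2* encodes N-cadherin, the classical cadherin of cardiomyocytes. Its values were 1341, 1313 and 1370 in KO hearts, compared with 1529, 1410 and 1284 in WT hearts, so that the WT hearts enclosed the KO hearts. The fold interval ran from 0.873 to 1.04. *Ctnna1* and *Ctnna3* encode αE-catenin and αT-catenin, which couple cadherin complexes to actin, and αT-catenin is known for its restricted expression in heart and few other tissues. *Ctnna1* had 1635, 1711 and 1687 reads in KO hearts, compared with 1923, 1728 and 1655 in WT hearts. WT replicate 1 stood above the other 5 hearts, and the fold interval was 0.872 to 1.04. *Ctnna3* had 654, 578 and 533 reads in KO hearts, compared with 646, 608 and 625 in WT hearts. Here the KO hearts held both the highest and the lowest value, with means of 588 ± 61.2 and 626 ± 19.0 (SD, n = 3), a fold interval of 0.844 to 1.04 and an unadjusted p of 0.201 (limma).

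**Figure D2:**
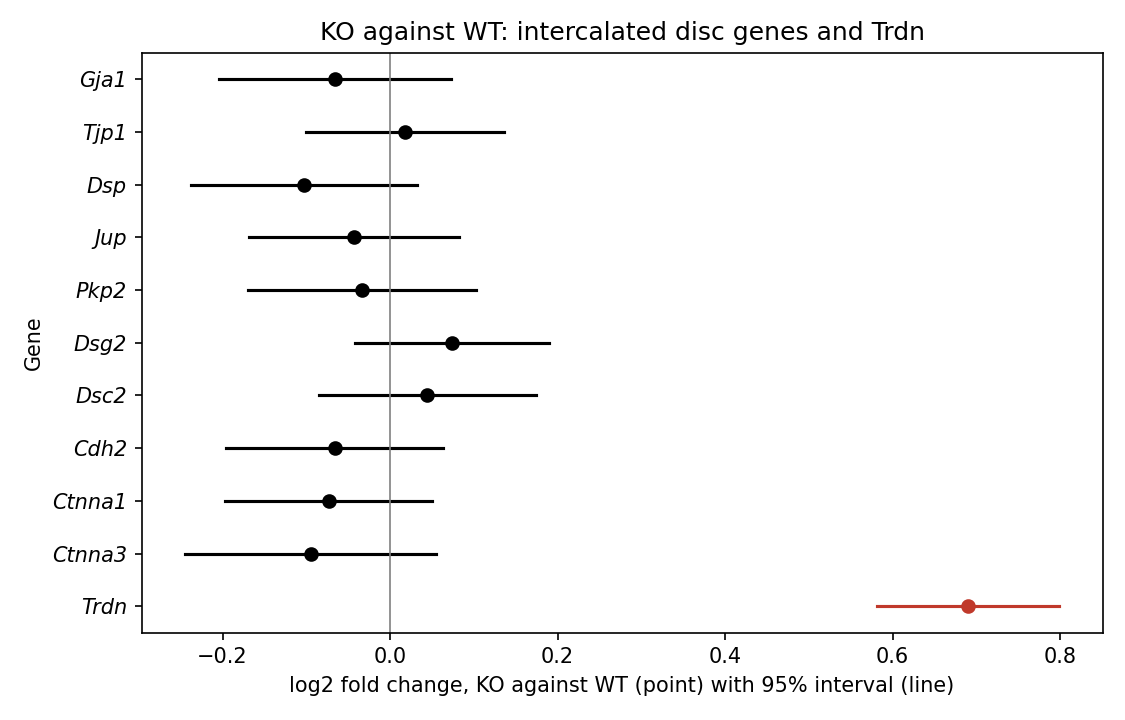
Log2 fold change of KO against WT hearts (point) and its 95% interval from limma (line) for the 10 disc genes, grouped by junction, and for *Trdn* (red), n = 3 hearts per genotype. All 10 intervals include 0 and lie between -0.24 and 0.19, whereas *Trdn* lies at 0.69.

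The 10 genes were measured more precisely than most of the table. The standard errors of the 10 log2 fold changes were between 0.06 and 0.07, all below the median of 0.12 over the genes tested. Over the 10 intervals the lowest bound was 0.844 times the WT level, for *Ctnna3*, and the highest was 1.14 times, for *Dsg2*. The SD between hearts was smaller than the counting error alone would give for 4 of the 10 genes in KO and 6 of the 10 in WT hearts. *Jup* had an SD of 14.7 reads in KO and 10.3 in WT hearts, against 23.9 and 25.9 from counting. *Dsp* went the other way in WT hearts, with an SD of 558 reads against 76.1 from counting.

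The WT hearts differed among themselves in a part of the 10 genes. WT replicate 1 held the highest value of 5 genes, *Gja1*, *Dsp*, *Jup*, *Cdh2* and *Ctnna1*. WT replicate 3 held the lowest of 4, namely *Gja1*, *Dsp*, *Dsg2* and *Cdh2*. On the log2 scale WT replicate 1 lay 0.18 above the mean of the 6 hearts for *Gja1*, 0.18 for *Dsp*, 0.16 for *Cdh2* and 0.16 for *Ctnna1*. In the same heart *Tjp1*, *Dsg2* and *Dsc2* lay at -0.02, -0.03 and -0.02. Summed over the 10 genes, the normalised reads were 14323, 14085 and 14293 in KO hearts, compared with 15782, 14902 and 13799 in WT hearts. The KO sums lay inside the range of the WT sums, with means of 14234 ± 130 and 14828 ± 994 (SD, n = 3).

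Markers of cardiomyocytes stood highest in the same WT heart. All 8 cardiomyocyte markers were highest in WT replicate 1, with a median of 0.27 above the mean of the 6 hearts, against 0.07 for the 10 disc genes. WT replicate 2 came second in both, and the order of the other 4 hearts differed. The markers were lowest in KO replicate 1 with a median of -0.13, and the disc genes in WT replicate 3 with one of -0.04. From the highest to the lowest heart, the marker medians followed the estimated reads of the libraries from the fewest to the most, with 2.59 M in WT replicate 1, 3.04 M in WT replicate 2, 3.15 M in KO replicate 3, 3.31 M in KO replicate 2, 3.46 M in WT replicate 3 and 3.62 M in KO replicate 1. The summed marker values ran from 22439 to 24012 in KO and from 23404 to 28813 in WT hearts. The log2 fold changes of the 8 markers were all negative with a median of -0.16, and 5 of the 8 had an unadjusted p under 0.05 (limma), against 2.80% of all genes for this direction, while 0 of them passed after adjustment. *Ryr2*, the calcium release channel, was the 1 marker whose groups did not overlap, at 9276, 9785 and 9861 in KO, compared with 11387, 10676 and 9991 in WT hearts. Of all genes tested, 9.07% had groups that did not overlap, with 4.44% lower in KO. Without WT replicate 1 the median of the 8 markers was -0.06, while it was -0.25 on omitting WT replicate 3, and the correction for read density described below brought it to -0.05. The part of this shift, and of library depth, in the values of the disc genes was not tested.

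The fold changes of 4 disc genes depended on which WT heart was included. Without WT replicate 1 the log2 fold change of *Gja1* was 0.01, that of *Dsp* -0.04, that of *Cdh2* -0.00 and that of *Ctnna1* -0.01. Without WT replicate 3 they were -0.14, -0.19, -0.13 and -0.12, and all 4 genes then had an unadjusted p under 0.05 (limma), from 0.00107 for *Dsp* to 0.0465 for *Ctnna1*, where 8.6% of all genes tested in that fit did, against 5.74% with all 6 hearts. Their adjusted p in that fit was 0.238 at the smallest. Leaving out KO replicate 1 likewise brought *Ctnna3* to -0.17 with an unadjusted p of 0.0240 and an adjusted p of 0.528 (limma), in a fit where 8.24% of all genes had an unadjusted p under 0.05. No disc gene passed an adjusted p of 0.05 in any of the 6 fits that each omitted 1 heart.

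**Figure D3:**
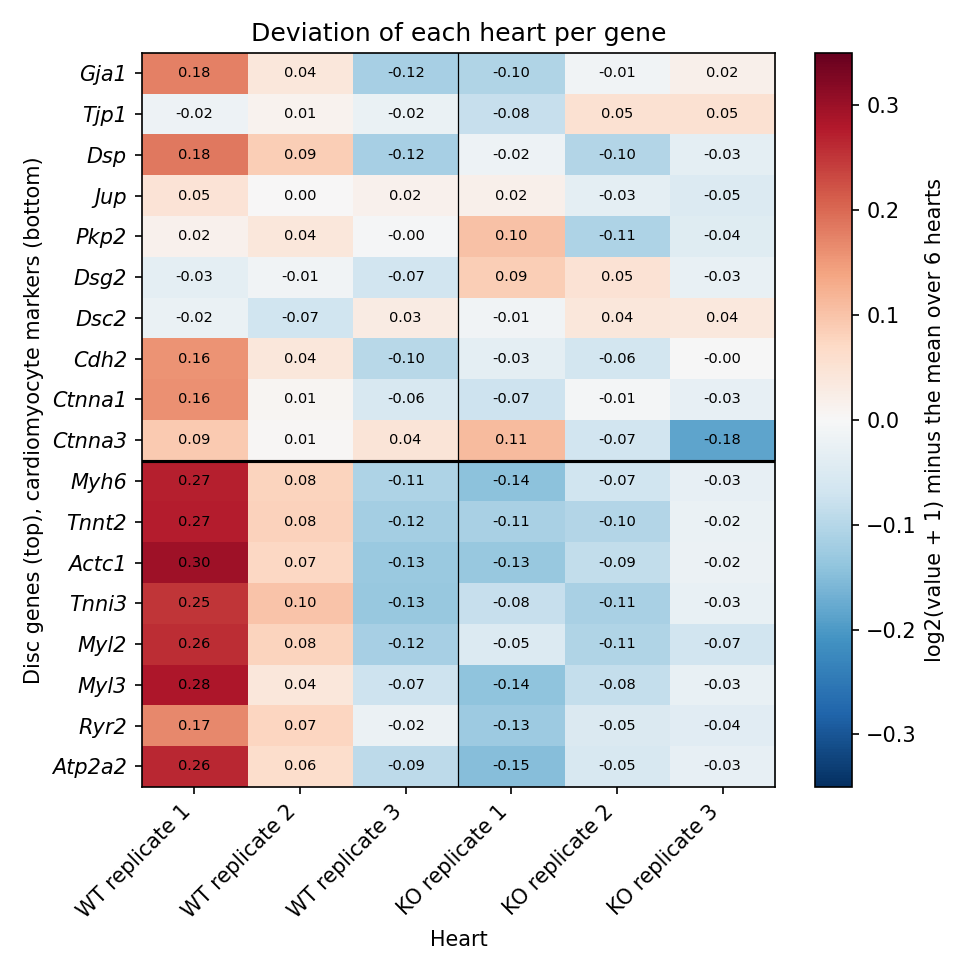
Deviation of log2(value + 1) from the mean of the 6 hearts for the 10 disc genes (above the line) and 8 cardiomyocyte markers (below it), hearts in columns, red for above and blue for below the mean. WT replicate 1 stands at 0.16 to 0.18 in *Gja1*, *Dsp*, *Cdh2* and *Ctnna1* and at -0.02 in *Tjp1* and *Dsc2*, and at 0.17 to 0.30 in the 8 markers.

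Fold changes in this table also varied with read density, that is, with normalised reads per exonic kilobase. A correction for density, made in each heart, removes any difference between hearts that genes of similar density share. The corrected fold changes of the 10 genes had a median of 0.00, and 5 were negative. *Dsp*, the densest of them, went from -0.10 to 0.02, and *Ctnna1* from -0.07 to 0.00. *Dsg2* went from 0.07 to 0.11, with an unadjusted p of 0.0256 and an adjusted p of 0.842 (limma), where 5.62% of all genes had an unadjusted p under 0.05.

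The balance between partners was examined next, as ratios of reads per exonic kilobase in each heart and without a test. The αT-catenin gene *Ctnna3* stood at 0.312 ± 0.0388 of *Ctnna1* in KO and at 0.316 ± 0.0187 in WT hearts (SD, n = 3). The single KO ratios of 0.356, 0.3003 and 0.281 spread more widely than the WT ratios of 0.299, 0.313 and 0.336. *Dsg2* exceeded its partner *Dsc2* by a ratio of 1.33 ± 0.0751 in KO and 1.30 ± 0.0686 in WT hearts (SD, n = 3). Relative to *Dsp*, *Jup* stood at 0.184 ± 0.00527 and 0.177 ± 0.0179, and *Pkp2* at 0.231 ± 0.0119 and 0.220 ± 0.0216 in KO and WT hearts (SD, n = 3). *Cdh2* to *Jup* was 1.76 ± 0.0625 and 1.79 ± 0.137. The groups overlapped in all 6 ratios.

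*Gja1* to *Tjp1* had the largest relative difference with all 6 hearts included, at 0.935 ± 0.0138 in KO and 0.994 ± 0.101 in WT hearts (SD, n = 3). The KO hearts gave 0.946, 0.919 and 0.939. The WT hearts gave 1.10, 0.980 and 0.901. The KO mean differed by -5.95% from the WT mean, and the WT range enclosed all 3 KO hearts. On the log2 scale this difference was -0.09, and leaving out WT replicate 1 or 3 gave -0.01 or -0.15. In the former case that of *Ctnna3* to *Ctnna1* was larger, at -0.05. The ratios of *Jup* and of *Pkp2* to *Dsp* likewise went from 0.06 and 0.07 to 0.00 and 0.00 without WT replicate 1, and to 0.14 and 0.14 without WT replicate 3. *Ctnna3* to *Ctnna1* itself ran from -0.12 without KO replicate 1 to 0.05 without KO replicate 3.

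**Figure D4:**
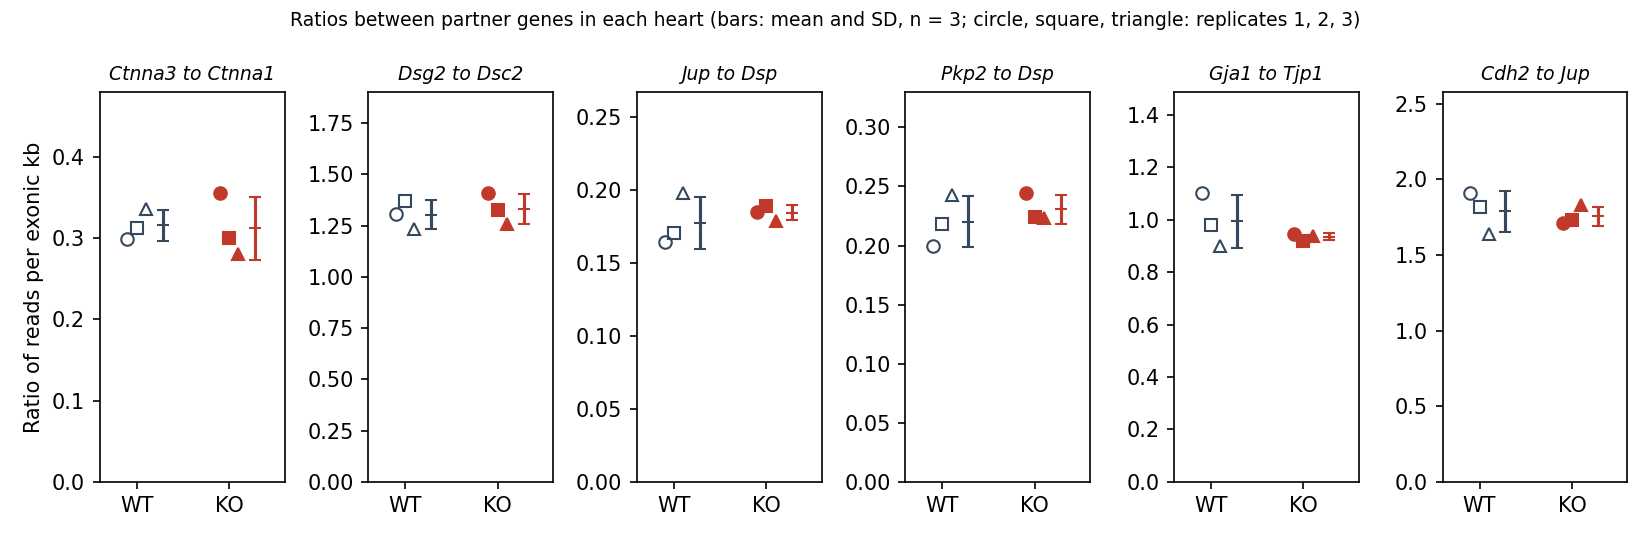
Ratios of normalised reads per exonic kilobase between 6 pairs of partner genes in each WT heart (open) and KO heart (filled), axes from 0, with bars for the mean and SD (n = 3). The groups overlap in all 6 panels, and *Ctnna3* to *Ctnna1* has means of 0.312 in KO and 0.316 in WT hearts.

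The 10 genes lie on 6 chromosomes of GRCm38. On chromosome 10, *Gja1* (ENSMUSG00000050953) spans chr10:56377330-56390415 and *Ctnna3* (ENSMUSG00000060843) chr10:63430098-65003667, both in plus orientation. These are 22.9 and 30.0 Mb from *Trdn*, which carries the modified locus. *Ctnna3* is the longest of the 10 at 1574 kb, of which 0.459% is exonic, and *Gja1* the most compact at 13.1 kb and 78.4%. *Lrrtm3*, a gene inside *Ctnna3* on the opposite strand, had values of 2 to 11, against 533 to 654 for *Ctnna3*. *Dsc2*, *Dsg2*, *Cdh2* and *Ctnna1* are all on chromosome 18, with *Dsc2* and *Dsg2* 499 kb apart within the desmosomal cadherin cluster. The genes of the table between them, *Dsg1a* and *Dsg1c*, are epidermal desmogleins and had values of at most 3. The plus strand carries *Dsg2* (ENSMUSG00000044393, chr18:20558074-20604521) and *Ctnna1* (ENSMUSG00000037815, chr18:35118888-35254773), and the minus strand *Dsc2* (ENSMUSG00000024331, chr18:20030633-20059554) and *Cdh2* (ENSMUSG00000024304, chr18:16588877-16809246). *Dsp* (ENSMUSG00000054889) lies at chr13:38151294-38198577 and *Pkp2* (ENSMUSG00000041957) at chr16:16213318-16272712 on the plus strand. *Jup* (ENSMUSG00000001552) lies at chr11:100370619-100397749 and *Tjp1* (ENSMUSG00000030516) at chr7:65296165-65371239 on the minus strand.

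Other genes of the junctions and of muscle proteins were taken from 6 lists with 97 genes, of which 68 were tested. At an adjusted p under 0.05, 0 of them passed (limma), and 6 had an unadjusted p under 0.05, or 8.82% against 5.74% of all genes tested. Of these 6 genes, 3 were higher and 3 lower in KO. Values below are given for each gene at an unadjusted p under 0.05 and, in lists with none, for the 4 tested genes with the highest mean.

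Among further desmosomal genes, 6 of 13 were in the table and 3 were tested. *Pkp4* had 687, 646 and 591 reads in KO, compared with 711, 636 and 650 in WT hearts. *Perp* had a log2 fold change of -0.06 and *Ppl*, the gene of periplakin, of -0.20, with 0 of the 3 at an unadjusted p under 0.05 (limma). Without KO replicate 1 that of *Ppl* was -0.589, with an unadjusted p of 0.00320 and an adjusted p of 0.262 (limma). In that fit 8.24% of all genes had an unadjusted p under 0.05. Without KO replicate 3 the log2 fold change of *Ppl* was 0.135. The other desmogleins of the table and envoplakin (*Evpl*) were not tested and had values of at most 5, far below *Dsg2* and *Dsc2*.

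Of the connexins and pannexins other than *Gja1*, 11 of 17 were in the table and 5 were tested, with 0 at an unadjusted p under 0.05 (limma). *Gjc1*, the gene of connexin 45, had the highest values with 194, 227 and 246 in KO, compared with 210, 221 and 215 in WT hearts. *Gja5*, the connexin 40 gene of atria and conduction system, had 38, 44 and 29 against 42, 36 and 43. *Gja3* had a log2 fold change of -0.10 and *Gja4*, a connexin of endothelium, of -0.04. Without KO replicate 2 these were -0.0357 and -0.335, and without KO replicate 3 they were -0.144 and 0.204. Per exonic kilobase *Gjc1* had a mean of 43.7 and *Gja5* of 6.73, against 148 for *Gja1*.

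Of the adherens junction partners, 17 of 20 were tested, 7 higher and 10 lower in KO, the median being -0.01 on the log2 scale, and 0 had an unadjusted p under 0.05 (limma). *Nexn*, the gene of the actin-binding protein nexilin, had 1694, 1498 and 1649 reads in KO, compared with 1908, 1785 and 1608 in WT hearts. *Afdn*, the gene of the nectin-binding afadin, had 1134, 1243 and 1254 against 1166, 1218 and 1110. The groups overlapped in both, and *Nexn* had a log2 fold change of -0.13 with an unadjusted p of 0.0611 (limma). *Vcl* encodes vinculin, which binds α-catenin and actin, and had a log2 fold change of -0.10 with an unadjusted p of 0.102 (limma). *Lpp*, which encodes a LIM protein of adhesion sites, had a log2 fold change of -0.01. Over the 17 genes the log2 fold changes ran from -0.18 to 0.47, and the smallest unadjusted p was 0.0518 (limma). The groups failed to overlap in 1 of the 17, against 9.07% of all genes.

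Of the junctional scaffolds, 14 of 18 were tested, 7 higher and 7 lower with a median of 0.00792, which ran from 0.00289 on omitting WT replicate 2 to 0.0315 on omitting KO replicate 1 and was 0.0291 after the density correction. *Magi1*, a membrane-associated guanylate kinase of cell junctions, had 287, 351 and 310 reads in KO, compared with 259, 268 and 281 in WT hearts. All 3 KO hearts lay above all 3 WT hearts, with a log2 difference of 0.23 (SE 0.08), an unadjusted p of 0.0135 and an adjusted p of 0.807 (limma). *Cgnl1*, the gene of paracingulin, had 462, 473 and 537 reads in KO, compared with 443, 437 and 438 in WT hearts, again without overlap. Here the log2 difference was 0.16 (SE 0.07) at an unadjusted p of 0.0379 and an adjusted p of 0.851 (limma). It was 0.09 without KO replicate 3, and that of *Magi1* was 0.15 without KO replicate 2. The groups failed to overlap in 3 of the 14, *Magi1* and *Cgnl1* among them, against 9.07% of all genes tested, with 4.64% higher in KO.

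Of the channels and anchoring proteins of the disc, 14 of 14 were tested, 3 higher and 11 lower in KO with a median of -0.07. *Scn4b* encodes a β-subunit of the voltage-gated sodium channel. It had 203, 239 and 249 reads in KO, compared with 177, 149 and 220 in WT hearts. The groups overlapped by 1 heart on each side, with a log2 difference of 0.35 (SE 0.12), an unadjusted p of 0.00735 and an adjusted p of 0.772 (limma). This difference was 0.22 without WT replicate 2, where 0 genes of the list had an unadjusted p under 0.05, and 0.496 when WT replicate 3 was omitted.

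Of the list of muscle proteins, 15 of 15 were tested, 2 higher and 13 lower in KO with a median of -0.10. Not all of them attach at the disc, since *Pln* encodes an inhibitor of the calcium pump. The median was -0.0209 after the density correction, -0.0288 on omitting WT replicate 1 and -0.110 on omitting WT replicate 3. The cardiomyocyte markers also moved under these settings, and whether the shifts are linked was not tested. *Xirp2*, which encodes an actin-binding protein of the disc, had 6151, 5712 and 5939 reads in KO, compared with 7295, 6840 and 6551 in WT hearts. All KO hearts lay below all WT hearts, with a log2 difference of -0.22 (SE 0.06), an unadjusted p of 0.000916 and an adjusted p of 0.518 (limma). The groups failed to overlap in 2 of the 15, *Xirp2* among them, against 9.07% of all genes tested, with 4.44% lower in KO. *Des*, the gene of the desmin filaments that desmoplakin holds, had 1340, 1310 and 1371 against 1630, 1452 and 1353. *Pln*, the gene of phospholamban, the inhibitor of the calcium pump, had 1956, 2046 and 2117 against 2602, 2230 and 2010. In both genes WT replicate 1 was highest and the groups overlapped, with unadjusted p of 0.0426 and 0.0445 (limma). Their log2 fold changes were -0.14 and -0.15 with all hearts, -0.06 and -0.05 without WT replicate 1, and -0.199 and -0.24 when WT replicate 3 was omitted. After the correction for read density the log2 fold changes of *Des* and *Pln* were -0.04 and -0.01, and that of *Xirp2* was -0.09.

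**Figure D5:**
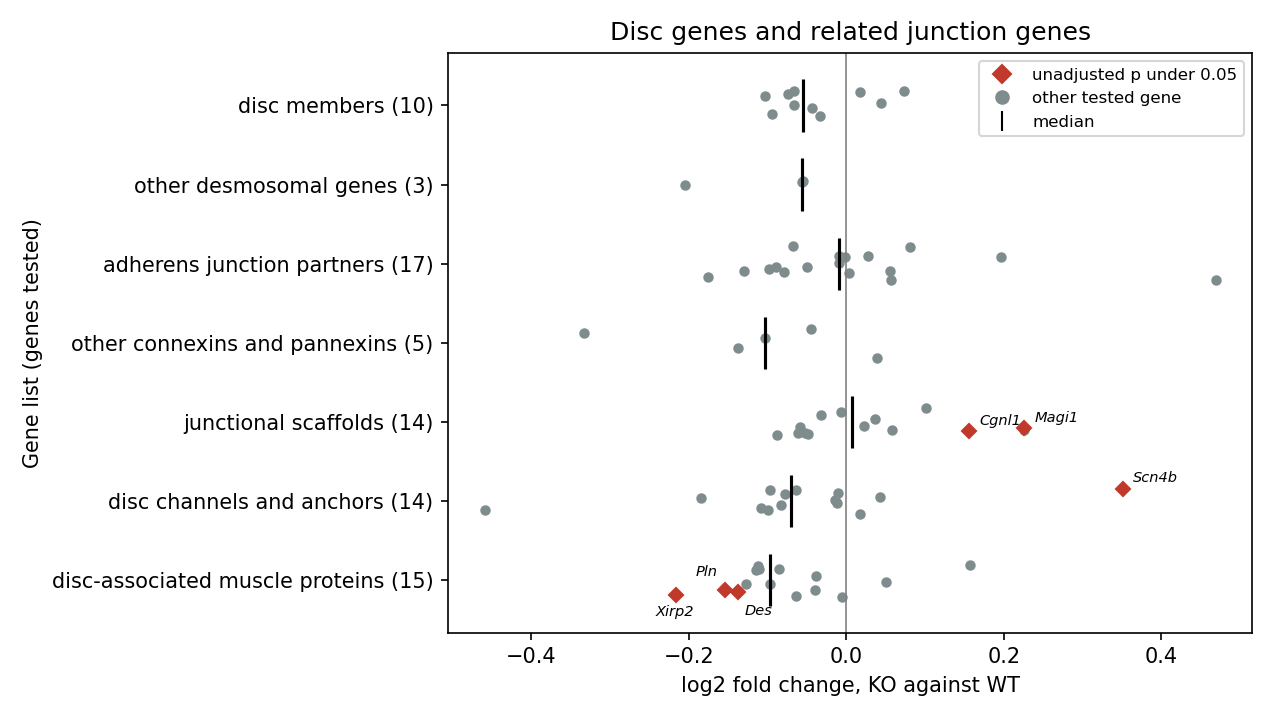
Log2 fold change of KO against WT hearts for each tested gene of the 10 disc genes and the 6 further lists, with a line at each median and named points at an unadjusted p under 0.05 (limma). The medians lie between -0.10 and 0.01, the 10 disc genes spread from -0.10 to 0.07, and 0 genes passed after adjustment.

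Markers of other cell types that hold junctions of their own were summed in each heart. The endothelial sums ran from 4573 to 5215 in KO and from 4576 to 5084 in WT hearts, with 8 of 8 markers above 0 in log2 fold change and a median of 0.03. This median was 0.00570 on omitting WT replicate 3, 0.117 on omitting KO replicate 1 and 0.0764 after the density correction. The fibroblast sums ran from 3934 to 4523 and from 4143 to 4470, with 5 of 8 above 0. The smooth muscle and pericyte sums ran from 3101 to 3478 and from 3163 to 3580, with 4 of 8 above 0. These sums overlapped between the genotypes in all 3 lists. *Acta2*, the actin of smooth muscle, was the 1 marker among them without overlap, at 247, 247 and 242 in KO, compared with 267, 261 and 279 in WT hearts. Of all genes tested, 9.07% had groups that did not overlap, with 4.44% lower in KO.

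The macrophage sums ran from 1421 to 1854 in KO and from 1545 to 1586 in WT hearts, with 5 of 8 markers above 0. Of the 8, 2 were higher at an unadjusted p under 0.05 (limma), against 2.94% of all genes for this direction, and 0 passed after adjustment. The median log2 fold change of the 8 was 0.0953. It was -0.00594 on omitting KO replicate 2 and 0.248 on omitting KO replicate 1. *Cd163*, a scavenger receptor of macrophages that is named here after its values were seen, had 218, 275 and 238 in KO, compared with 208, 189 and 235 in WT hearts, with an unadjusted p of 0.0491 (limma). *C1qb*, a complement gene of macrophages, did not overlap, at 78, 100 and 90 against 65, 75 and 64, with an unadjusted p of 0.0117 and an adjusted p of 0.807 (limma). Over all genes tested, the share without overlap and higher in KO was 4.64%. The atrial and conduction markers summed to 740 to 971 in KO and 726 to 926 in WT hearts. The epicardial, mesothelial and epithelial markers stayed between 31 and 62, those of fat between 9 and 43 and those of red blood cells between 152 and 437. The part of any of these cell types in the values of the 10 disc genes was not tested.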

How the data were processed

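RNA of 3 *Trdn-as* KO and 3 WT hearts was sequenced as strand-specific total RNA with 75 bp single-end reads. Per the submitters' processing notes and the study's methods, the authors trimmed reads (Trimmomatic 0.39), aligned them to GRCm38 (STAR 2.6.1d), removed duplicates (Picard 2.21.1) and multi-mapping, ribosomal and mitochondrial reads, counted exonic reads on the matching strand (featureCounts 1.6.5) and normalised with DESeq2 1.18.1. Removing duplicates without molecular identifiers lowers the counts of highly expressed genes most, and reads over several genes were excluded. The deposited values are a score in the form of normalised counts rounded to whole numbers, so no count model was fitted, and limma 3.58.1 (R 4.3.3) was run in its place on log2(value + 1) with lmFit and eBayes with a mean-variance trend, after requiring a mean of at least 10. This left 13753 of 21776 genes. Tests were two-sided, with Benjamini-Hochberg adjustment over all genes tested, a threshold of 0.05 and 95% intervals from the moderated errors. An exact permutation test of 3 against 3 hearts cannot go below 0.1 and was not used.

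Size factors were estimated from the gaps that rounding leaves in the values, and gave the number of reads per library. On 10 simulated sets this estimate missed by at most 0.000472%. In 5 simulated sets of KO against WT with 200 changed genes each, on 13739 to 13774 genes, limma recovered 45% to 55% of the genes changed 1.5-fold and 83% to 90% of those changed 2-fold. At most 6.12% of the genes called in a set were unchanged ones. These sets used the same dispersion for every gene and no difference between hearts beyond depth, so recovery in the real hearts may differ. Exonic lengths are the union of GENCODE M21 exons, matched by identifier for 99.8% of genes. Coordinates were identical for 75.2% of genes and for 6 of the 10 members. Coordinates are those of the deposited table. For the read density correction, the deviation of log2(value + 1) from the gene mean was taken in each heart. A lowess curve (span 0.3) of this deviation on log2 reads per exonic kilobase was subtracted heart by heart, and limma was run again.

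Groups were taken from the genotype labels. The members and all lists were chosen with earlier results of these data known. Genes named were *Trdn* and its antisense RNA, every member, in each further list each gene at an unadjusted p under 0.05 and otherwise the 4 highest, and marker genes whose groups did not overlap. *Cd163*, the cardiomyocyte markers, *Wt1*, *Lrrtm3*, *Dsg1a*, *Dsg1c* and *Evpl* fall outside this rule and were named after their values were seen, as markers, neighbours of the members or untested genes of a list. Alternatives were limma-voom, other scalings, filters, pseudocount and threshold, no trend, a replicate block, the density correction and the omission of each heart.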

Additional observations from a re-analysis of the deposited data

How the results depend on the processing

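No disc gene passed an adjusted p of 0.05 under any alternative, with adjusted p from 0.238 to 0.999. Of 160 values of these genes under the alternatives, 154 kept direction and call. This count includes the stricter threshold, at which genes not called in the main fit could not change. It also includes the filters, no trend and the replicate block, which leave the fold changes as they were, so that direction was fixed. The sign of *Dsp* turned to 0.0178 and that of *Ctnna1* to 0.00466 with the density correction, which also gave a median of 0.000835 for the disc genes, 1 of them at an unadjusted p under 0.05, a median of -0.0271 and 2 genes at that p for channels and anchors, and a median of -0.0209 for the muscle proteins. Leaving out 1 heart moved *Gja1* between -0.141 and 0.00609, *Pkp2* between -0.0923 and 0.0123 and *Tjp1* between -0.00447 and 0.0618, the median of the disc genes between -0.0710 (without WT replicate 3) and -0.00824 (without WT replicate 1), and their number at an unadjusted p under 0.05 between 0 and 4, with 4 without WT replicate 3 and 1 without KO replicate 1.

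Over all genes, the 4 calls became 2 with at least 10 in every sample, 1 without the mean-variance trend and 2 at an adjusted p of 0.01, and 2 to 32 on leaving out 1 heart, the most without KO replicate 1. The 790 genes at an unadjusted p under 0.05 became 507 to 1182. *Trdn* had an adjusted p of 0.145 without the trend. For the adherens junction partners, 1 gene reached an unadjusted p under 0.05 with limma-voom, 1 with total scaling, 2 without the filter, 1 with at least 10 in every sample and 0 to 5 on leaving out 1 heart, with 5 without WT replicate 3. Their median became 0.0150 with limma-voom and 0.0139 with total scaling, where the median of all genes was 0.0257 and 0.0248, and ran from -0.0318 to 0.0209 on leaving out 1 heart. On leaving out 1 heart the other desmosomal genes had 0 to 1 genes at that p and a median of -0.113 to 0.00281 (-0.130 without the filter), the connexins a median of -0.269 to -0.0367. The scaffolds had 0 without the trend and 0 to 4 on leaving out 1 heart, the channels and anchors 2 without the filter, 0 without the trend and 0 to 4, and the muscle proteins 1 with total scaling, 1 without the trend and 1 to 6, with a median of -0.110 to -0.0288. The cause of these shifts was not tested.

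Deviations of hearts with the same replicate number correlated at 0.05, -0.07 and -0.03, so the numbers were not taken as pairs. With a replicate block 0 disc genes passed, and 2 adherens junction partners had an unadjusted p under 0.05. Estimated reads of 2.59 to 3.62 M per library limit low genes such as the rarer connexins.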
